A study of Xenopus laevis with 6 samples.

Results

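The subject here is a small group of transcripts whose signal followed that of *ptgds* and *darmin* from frog to frog in a brain block of juvenile *Xenopus laevis*. The group was chosen from the measured values. A probe set with a single gene symbol was kept when its lowest log2 signal in frogs 2, 3, 5 and 6 was at least 1.0 above its highest in frogs 1 and 4. That difference is called the gap below. The choice kept 9 of 15495 probe sets (0.0581%), which carry 7 symbols: *ptgds.S*, *ptgds-b*, *darmin.L*, *enpp2.L*, *pmp2.S*, *aifm3.L* and *hprt1.L*. With frogs 2, 3, 5 and 6 below frogs 1 and 4 by the same margin, the count was 0. Since the gap chose the members, their gaps and their levels in frogs 1 and 4 are descriptions and carry no test.

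The study injected recombinant *X. laevis* leptin (rxLeptin, 20 ng per g body weight, frogs 4 to 6) or 0.6% saline (frogs 1 to 3) into the brain ventricles, and the preoptic area, hypothalamus and pituitary were dissected together 2 h later. The juveniles had an average body weight of 0.8 g, and every group was injected by the same route. Each frog gave 1 Affymetrix array. The labels number the samples as separate frogs, so n = 3 in each group. Frogs 1 and 4 are a saline and a leptin frog, and frogs 2, 3, 5 and 6 hold the other members of both groups.

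The choroid plexus is the folded, vascular epithelium inside the ventricles that secretes cerebrospinal fluid, and the meninges are the fibroblast-rich membranes around the brain. Lipocalin-type prostaglandin D synthase, the product of *ptgds*, is both an enzyme that makes prostaglandin D and a secreted carrier of small lipophilic molecules. It is a major product of leptomeninges and choroid plexus in mammals. In the cane toad the choroid plexus secretes mainly a lipocalin of this family, where mammalian choroid plexus secretes transthyretin. In the RefSeq gene table *ptgds.S* carries the synonyms cpl1 and ptgds-b. This frog is allotetraploid, and the endings .L and .S tell apart gene copies on its long and short chromosomes.

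The deposited values, already processed by the submitters, were alike in their overall signal across arrays. This does not show that the blocks themselves were alike. Medians lay between 7.36 and 7.46 on the log2 scale, and array pairs correlated at 0.983 to 0.995 over all tested probe sets. The log2 ratio of the 3' to the 5' *gapdh* control ranged from 0.35 to 0.51 in frogs 2, 3, 5 and 6, against 0.47 in leptin frog 4 and 0.44 in saline frog 1, which lie inside that range. Blocks under the same tissue label differed in the signal of a pituitary and a muscle gene, and the cause was not tested. Growth hormone (*gh1.L*) was at 4.35 in saline frog 1 and between 11.69 and 12.84 in the other frogs, and skeletal actin (*acta1.S*) was at 10.90 in saline frog 3 and between 6.67 and 7.92 elsewhere. The labels give no batch. The number of arrays limits the precision, and a bulk signal cannot tell fewer cells of a type from less RNA per cell.

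The lipocalin transcripts were among the brightest on the array wherever they were high. *ptgds.S* (probe set Xl2.47287.1.S1_at) read 13.78 and 13.63 on the log2 scale in leptin frogs 5 and 6 and 13.89 and 14.34 in saline frogs 2 and 3, against 10.35 in leptin frog 4 and 9.70 in saline frog 1. The gap of 3.28 is 9.74-fold on the linear scale. In frogs 2, 3, 5 and 6 the probe set lay above 99.5, 99.6, 99.7 or 99.9% of all probe sets, against 87.3% in leptin frog 4 and 80.1% in saline frog 1, so *ptgds.S* was in the upper part of the array also in the low frogs.

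The probe set annotated *ptgds-b* (Xl2.194.1.S1_at) read 14.42 and 14.37 in leptin frogs 5 and 6 and 14.51 and 14.68 in saline frogs 2 and 3, against 13.26 in leptin frog 4 and 12.23 in saline frog 1. Its gap was 1.12, or 2.17-fold. Its 4 high values spanned 0.30, and the highest signal on any array lay between 14.85 and 14.92. The high values of *ptgds-b* therefore sit near the top of the scale, and the part that this plays in its smaller gap was not tested. Its gene identifier was not in the RefSeq table, so whether *ptgds-b* and *ptgds.S* are copies of a gene or the same gene is not settled here.

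*darmin.L* had the widest gap of the 9. The gene encodes a secreted peptidase and was described in the endoderm of the *Xenopus* embryo. Its brighter probe set (Xl2.6024.1.S1_at) read 13.54 and 13.28 in leptin frogs 5 and 6 and 13.39 and 14.13 in saline frogs 2 and 3, against 9.34 in leptin frog 4 and 8.86 in saline frog 1. The gap of 3.94 is 15.3-fold. The dimmer probe set (Xl2.8551.1.S1_at) read 8.62 and 7.82 in leptin frogs 5 and 6 and 8.43 and 9.63 in saline frogs 2 and 3, against 5.13 in leptin frog 4 and 4.66 in saline frog 1, a gap of 2.68. The rule required this split of both probe sets, which differ in brightness.

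**Figure D1:**
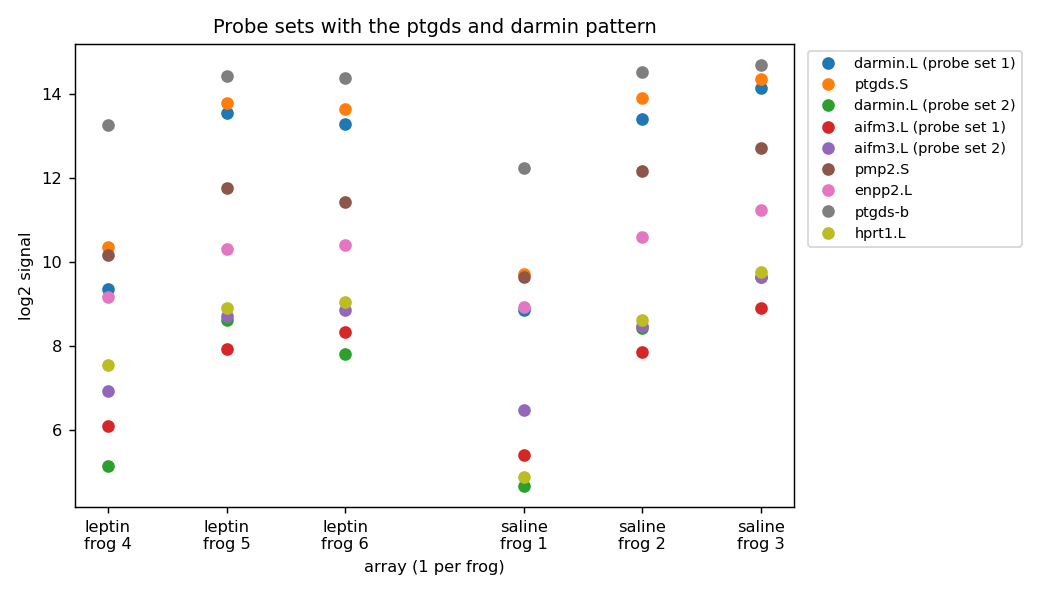
Log2 signal of the 9 member probe sets in each frog, leptin frogs to the left of saline frogs, with 1 point per array. For each probe set the points of leptin frog 4 and saline frog 1 lie at least 1.08 below the points of the other 4 frogs, saline frog 1 is lowest and saline frog 3 is highest.

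*enpp2*, which encodes autotaxin, the secreted enzyme that makes lysophosphatidic acid and is abundant in mammalian choroid plexus, was a member through its long-chromosome copy. *enpp2.L* read 10.30 and 10.40 in leptin frogs 5 and 6 and 10.60 and 11.23 in saline frogs 2 and 3, against 9.17 in leptin frog 4 and 8.92 in saline frog 1, a gap of 1.13. The copy *enpp2.S* missed the threshold with a gap of 0.68, at 9.49 to 11.01 in frogs 2, 3, 5 and 6, against 8.59 in leptin frog 4 and 8.82 in saline frog 1. The *enpp2* copies therefore split the frogs alike, with leptin frog 4 the lowest in the second.

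*pmp2* encodes the peripheral myelin protein P2, a fatty acid binding protein. *pmp2.S* read 11.75 and 11.41 in leptin frogs 5 and 6 and 12.17 and 12.70 in saline frogs 2 and 3, against 10.15 in leptin frog 4 and 9.63 in saline frog 1, a gap of 1.26. The copy *pmp2.L* read 11.17 and 9.83 in leptin frogs 5 and 6 and 10.25 and 11.34 in saline frogs 2 and 3, against 8.91 in leptin frog 4 and 8.65 in saline frog 1. Its gap of 0.91 left *pmp2.L* outside the group, although the frogs did not overlap.

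*aifm3.L*, which encodes a mitochondrial protein of the apoptosis-inducing factor family, was caught by both of its probe sets. The first (Xl2.1270.1.S1_at) read 7.93 and 8.32 in leptin frogs 5 and 6 and 7.85 and 8.91 in saline frogs 2 and 3, against 6.09 in leptin frog 4 and 5.40 in saline frog 1. The gaps of the *aifm3.L* probe sets were 1.76 and 1.55.

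*hprt1.L*, the purine salvage enzyme, was the member nearest to the threshold, and its probe sets disagreed. The member (Xl2.2439.1.S1_at) read 8.91 and 9.05 in leptin frogs 5 and 6 and 8.62 and 9.76 in saline frogs 2 and 3, against 7.54 in leptin frog 4 and 4.89 in saline frog 1, a gap of 1.08. The probe set Xl2.2439.1.S1_s_at, which carries the same accession, lay between 10.37 and 10.81 in all 6 frogs with a gap of 0.02, and Xl2.48348.1.S1_at lay between 9.67 and 10.05 with a gap of -0.37. Thus 1 of the 3 *hprt1.L* probe sets reached the gap of 1.0. Xl2.2439.1.S1_s_at had the same split of frogs by only 0.02, with leptin frog 4 rather than saline frog 1 the lowest. The RefSeq table lists prtfdc1, the name of a related gene, among the synonyms of *hprt1.L*.

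Within the group the frogs kept a common order at the ends. Saline frog 1 was lowest in 9 of 9 members and saline frog 3 highest in 9 of 9. The rule allowed only frogs 1 or 4 to be lowest and only frogs 2, 3, 5 or 6 to be highest. Neither count was taken over all probe sets. Leptin frog 4 was thus above saline frog 1 in 9 of 9, by 0.25 (*enpp2.L*) to 2.65 (*hprt1.L*), with a median of 0.52. Set on the way from saline frog 1 to the lowest of frogs 2, 3, 5 and 6, leptin frog 4 stood at 11.0% for the brighter *darmin.L* probe set, 16.5% for *ptgds.S*, 48.0% for *ptgds-b* and 71.0% for *hprt1.L*. These positions come from the values that chose the members, with *ptgds-b* near the top of the scale in the high frogs and *hprt1.L* at 4.89 in saline frog 1. Among frogs 2, 3, 5 and 6 the values spanned 0.30 to 1.81.

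Over the 6 arrays the 36 pairs of members correlated at a Pearson r of 0.892 to 0.999, a description of points that share arrays and were chosen for this split. The closest pair was *ptgds.S* with the brighter *darmin.L* probe set, and the lowest value was that of *hprt1.L* with the dimmer *darmin.L* probe set. A further 9 probe sets with several symbols or none had a gap of at least 1.0 (0.0528% of 17044), between 1.04 and 2.10. These are not named here. Saline frog 3 was highest in 7 of these 9. The gap limits which frogs can be highest, and this count was not taken over all probe sets.

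The threshold cut through a continuous series. Just inside it were *aifm3.L* (1.55), *pmp2.S* (1.26), *enpp2.L* (1.13), *ptgds-b* (1.12) and *hprt1.L* (1.08). Just outside were the homeobox factor *msx1.L* (0.91), *pmp2.L* (0.91), the endothelial lipase *lipg.L* (0.86), the retinaldehyde binding protein *rlbp1.L* (0.84) and the glycogen-targeting subunit *ppp1r3c.1.L* (0.82). In all, 15 probe sets had gaps from 0.5 to 1.0, with saline frog 3 highest in 14 and saline frog 1 lowest in 11. They include *cpt1b.L* (0.73), *atp13a4.S* (0.70), *flvcr2.L* (0.67) and *pmel-a* (0.55), which were chosen after their values were seen. A gap above 0 by itself limits which frogs can be lowest or highest. The counts of the highest and the lowest frog were not taken over all probe sets.

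The tissue that these transcripts mark was examined with 16 gene lists, using the share of probe sets with frogs 2, 3, 5 and 6 all above frogs 1 and 4 by any margin. Over all single-symbol probe sets that share was 5.04%, and the opposite order held for 6.01%. Probe sets of a gene and its copies share a source, so the counts are not of independent genes. The shares are descriptions, because the frogs were divided by the same arrays and the lists were chosen with earlier results of these data known.

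Of the choroid plexus epithelium list, 9 of 26 probe sets (34.6%), from 5 of 17 measured genes, were higher in frogs 2, 3, 5 and 6, and 1 was lower. Without the member *enpp2.L* the count was 8 of 25 (32.0%), with *msx1*, *tmem72* and *otx2* through 2 probe sets each and *folr1* and *enpp2.S* through 1. *msx1.L*, a homeobox factor of the dorsal midline and choroid plexus, read 6.95 and 7.09 in leptin frogs 5 and 6 and 7.48 and 7.70 in saline frogs 2 and 3, against 6.04 in leptin frog 4 and 5.10 in saline frog 1. *otx2.L*, the homeobox factor required for choroid plexus development in the mouse, read 8.90 and 9.48 in leptin frogs 5 and 6 and 9.02 and 9.70 in saline frogs 2 and 3, against 8.37 in leptin frog 4 and 8.07 in saline frog 1. *msx1* and *otx2* thus had the split in both copies, with gaps of 0.14 for *msx1.S* and 0.13 for *otx2.S*. The copy *msx1.S* was low on the array, at 4.55 to 5.26 in frogs 2, 3, 5 and 6, against 4.37 in leptin frog 4 and 4.41 in saline frog 1. The dimmer probe set of the membrane protein gene *tmem72.L* was low on the array, at 4.68 to 6.24 in frogs 2, 3, 5 and 6, against 3.83 in leptin frog 4 and 3.99 in saline frog 1.

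Other genes of the same list did not follow. *ttr.L*, transthyretin, stayed between 4.18 and 4.83 in all 6 frogs, among the dim probe sets. The water channel *aqp1.L* was at 11.89 to 12.02 in frogs 2, 3, 5 and 6, against 11.79 in leptin frog 4 and 12.45 in saline frog 1. The prolactin receptor *prlr.L* had the opposite order, at 8.33 and 7.30 in leptin frogs 5 and 6 and 8.66 and 8.69 in saline frogs 2 and 3, against 9.02 in leptin frog 4 and 9.50 in saline frog 1. The folate receptor *folr1.L* had a gap of only 0.02. Within the list, gaps above 0.1 were thus those of *enpp2*, *msx1*, *otx2* and *tmem72*, and 16 of the 26 probe sets had neither order.

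**Figure D2:**
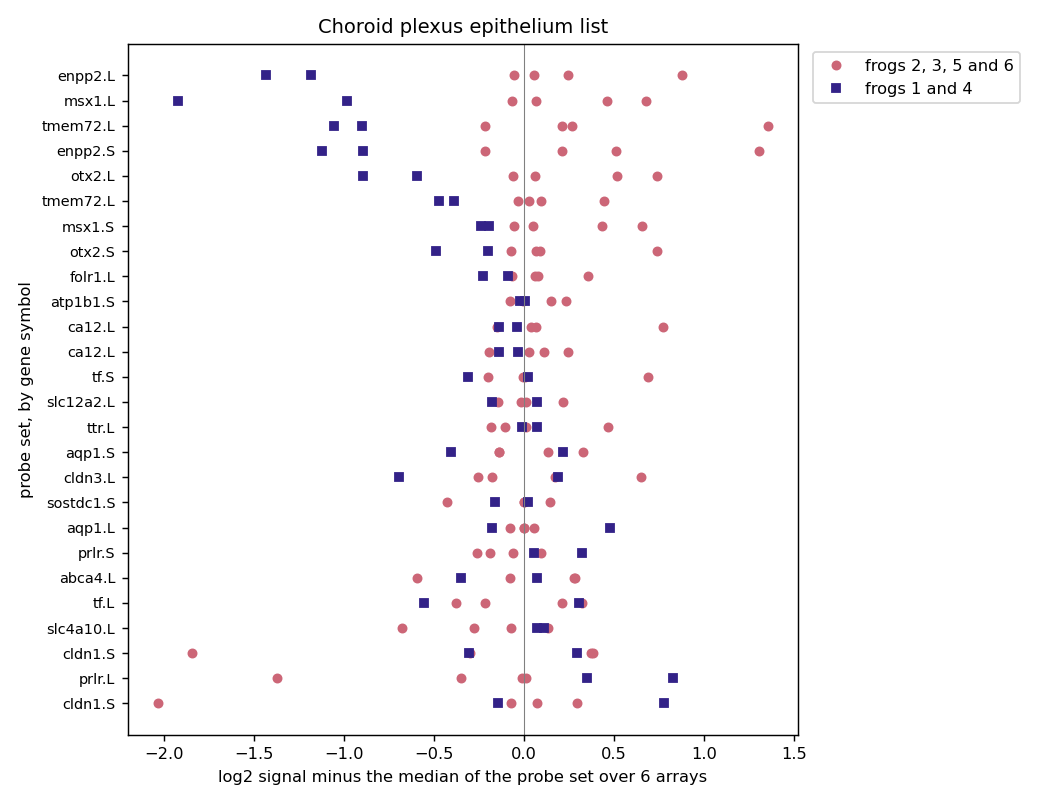
Log2 signal of each of the 26 probe sets of the choroid plexus epithelium list, minus the median of that probe set over the 6 arrays. Circles are frogs 2, 3, 5 and 6 and squares are frogs 1 and 4. In the upper 9 rows all circles lie to the right of both squares, and in the *prlr.L* row they lie to the left.

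The list of lipocalins and retinoid handling had 9 of 45 probe sets (20.0%) higher in frogs 2, 3, 5 and 6 and 0 lower. Without the member *ptgds.S* the count was 8 of 44 (18.2%). The largest gaps after *ptgds.S* belonged to genes of the visual cycle, which regenerates the chromophore of visual pigment: *rlbp1.L* (0.84), the isomerase *rpe65.L* (0.63) and the retinol dehydrogenase *rdh5.S* (0.35). *rpe65.L* read 10.62 and 10.38 in leptin frogs 5 and 6 and 10.21 and 11.24 in saline frogs 2 and 3, against 9.58 in leptin frog 4 and 8.86 in saline frog 1. The other copies *rpe65.S* (gap -0.04) and *rdh5.L* (gap -0.69) did not split the frogs this way.

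These visual cycle genes are best known from the retinal pigment epithelium, so pigment and photoreceptor markers were looked at beside them. None of the 9 probe sets of the pigment cell list (0%) had the split, with *pmel.S* at 5.37 to 6.35 in frogs 2, 3, 5 and 6, against 6.29 in leptin frog 4 and 4.91 in saline frog 1. The list holds the premelanosome protein gene as *pmel* and so did not take in the probe set annotated *pmel-a*, which did have the split. *pmel-a* read 8.63 and 8.90 in leptin frogs 5 and 6 and 7.51 and 8.60 in saline frogs 2 and 3, against 6.96 in leptin frog 4 and 5.99 in saline frog 1, a gap of 0.55. Of 33 probe sets of photoreceptor and pineal genes, a list chosen after the data were seen, 2 had it (6.06%), close to the share over all probe sets. These were *grk1.S* (gap 0.10) and *pde6h.S* (gap 0.09).

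The leptomeninges and fibroblast list holds *ptgds* and *darmin* themselves. The member annotated *ptgds-b* entered none of the lists, because they hold the gene as *ptgds*. Without the 3 members on this list, *ptgds.S* and both *darmin.L* probe sets, 5 of 76 probe sets (6.58%) were higher in frogs 2, 3, 5 and 6. That is close to the share over all probe sets, and the largest gap among them was 0.12 (an *aldh1a2.L* probe set). With its members, the list had the split in 8 of 79 probe sets (10.1%), and in 22 of 79 (27.8%) without leptin frog 4, against 17.3% over all single-symbol probe sets without that frog. The brighter type I collagen probe set *col1a1.S* read 11.84 and 10.98 in leptin frogs 5 and 6 and 11.54 and 12.98 in saline frogs 2 and 3, against 12.09 in leptin frog 4 and 11.53 in saline frog 1, so leptin frog 4 was not low. The meningeal factor *foxc1.L* was highest in leptin frog 4, at 7.07, against 6.47 in saline frog 1. The neural and meningeal factor *zic1.S* stayed within 11.83 and 12.29 on its brighter probe set.

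In the list of ependyma and motile cilia, 4 of 27 probe sets (14.8%) were higher in frogs 2, 3, 5 and 6, with gaps of at most 0.16 (*rsph1.L*). The count was 7 (25.9%, against 16.7% over all single-symbol probe sets) without saline frog 1 and 9 (33.3%, against 17.3%) without leptin frog 4. Without leptin frog 6 it was 8 of 27, against 1240 of all 15495 probe sets. The master regulator *foxj1.S* lay between 8.41 and 8.69 in all 6 frogs. The prostaglandin list gave 0 of 15 probe sets without *ptgds.S*. Its hematopoietic-type synthase *hpgds.S*, which makes the same prostaglandin as *ptgds*, was at 10.72 to 11.24 in frogs 2, 3, 5 and 6, against 10.91 in leptin frog 4 and 10.86 in saline frog 1.

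In each of the other 10 lists at most 2 probe sets had the split, and some had the opposite order. Neurons had 2 of 18 probe sets with the split (11.1%) and cartilage and bone 1 of 9 (11.1%). Astrocytes and radial glia had 1 of 18 (5.56%) and skeletal muscle 1 of 28 (3.57%). The share over all single-symbol probe sets was 5.04%, and each of these gaps was at most 0.12. For endothelium and pericytes the count was 0 of 25, for erythrocytes 0 of 13, for leukocytes 0 of 20, for oligodendrocytes 0 of 8, for epidermis and mucosa 0 of 32 and for the pituitary 0 of 18. The opposite order, frogs 2, 3, 5 and 6 all below frogs 1 and 4, held for 6.01% of all single-symbol probe sets. It held for 4 of 13 erythrocyte probe sets (30.8%) and 4 of 20 leukocyte probe sets (20.0%). For astrocytes and radial glia the count was 3 of 18 (16.7%) and for neurons 2 of 18 (11.1%). The erythrocyte probe sets with the opposite order were *gata1.L*, the anion exchanger *slc4a1.L*, the heme synthesis enzyme *alas2.L* and the globin *hba1.S*. The erythroid factor *gata1.L* lay furthest apart, at 6.90 and 6.81 in leptin frogs 5 and 6 and 6.72 and 6.93 in saline frogs 2 and 3, against 7.20 in leptin frog 4 and 7.22 in saline frog 1. The other 9 erythrocyte probe sets had neither order. Among these were the copy *gata1.S* and the bright globin probe sets Xl2.34797.1.A1_x_at and Xl2.51992.1.S1_at of *hbg1.L*. The part of blood and other cells in the level of the members was not tested. The low pituitary signal of saline frog 1 was not shared by leptin frog 4. The deviation of each pituitary probe set from its own median over the 6 frogs had a median over the list of 0.13 in leptin frog 4 and -4.49 in saline frog 1 (log2).

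**Figure D3:**
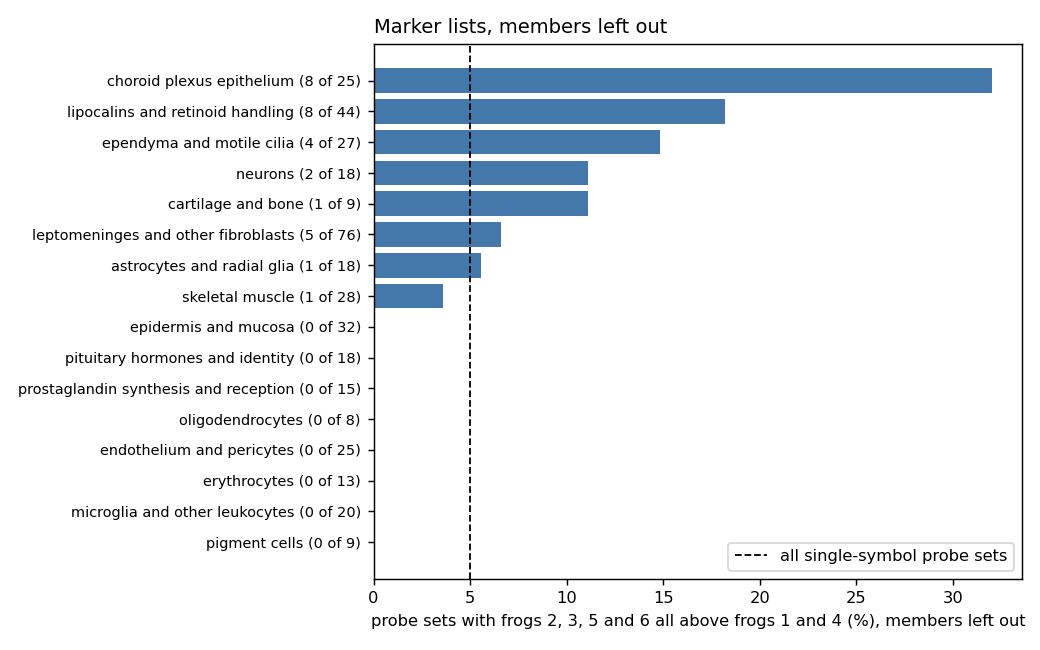
Share of probe sets in each of the 16 lists with frogs 2, 3, 5 and 6 all above frogs 1 and 4, with the members left out. The counts stand beside the names, and the dashed line is the share over all single-symbol probe sets without the members (4.99%). The choroid plexus epithelium list has the longest bar (32.0%).

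**Figure D4:**
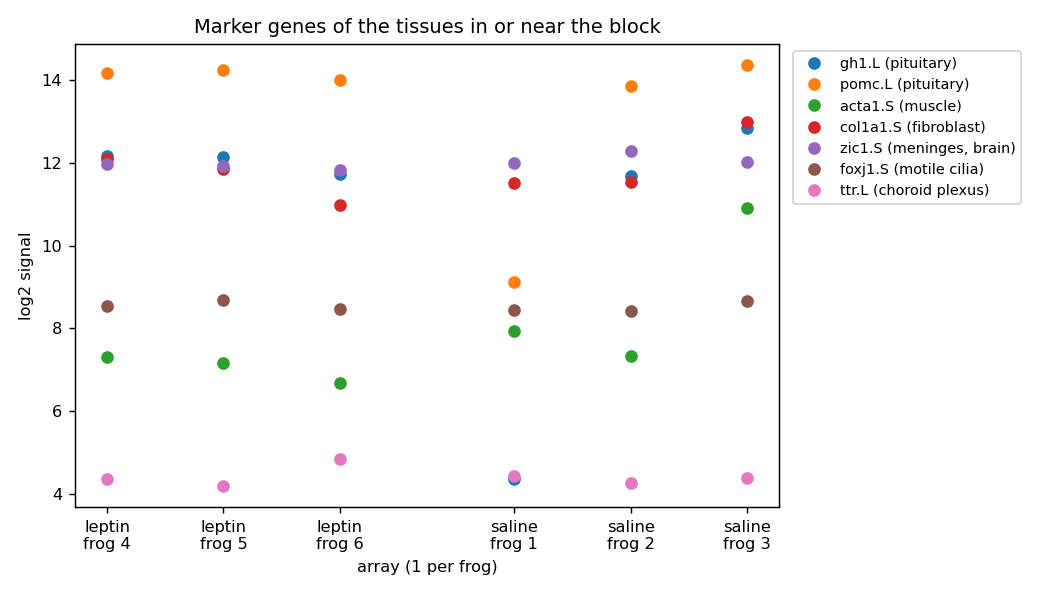
Log2 signal of marker genes in each frog, leptin frogs to the left of saline frogs, with 1 point per array. *gh1.L* and *pomc.L* are low in saline frog 1 alone and *acta1.S* is high in saline frog 3. None of the 7 genes is lower in leptin frog 4 and saline frog 1 than in the other frogs.

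The shares were also taken without the blocks that stood apart. Without saline frog 1, in which the pituitary list was low, the choroid plexus list had 11 of 26 probe sets (42.3%) with the remaining frogs split in this way, against 16.7% over all single-symbol probe sets. Without saline frog 3, which carried muscle transcripts, it had 9 of 26 (34.6%) against 7.42%. For the list of lipocalins and retinoid handling the shares were 22.2% without saline frog 1 and 20.0% without saline frog 3. Without saline frog 1 that list thus came nearer to the share over all probe sets. The counts of both lists include a member, *enpp2.L* or *ptgds.S*, which keeps the split whichever frog is left out. The 9 members stay members whenever a frog is left out, since this can only widen the gap. Without saline frog 1 the same threshold admitted 15 probe sets, without saline frog 3 it admitted 10, and without leptin frog 4 it admitted 47.

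By likeness of pattern alone, the single-symbol probe sets outside the group that correlated best with the mean of the *ptgds* and *darmin* probe sets over the 6 arrays were *jak2.L* (r = 0.992), *trappc1.S* (0.989), *srsf12.L* (0.987), *lipg.L* (0.986) and *pip4p2.L* (0.985). They were followed by *fn3krp.S* (0.983), *plat.L* (0.978), *rnf41.L* (0.977), *rarres1.S* (0.969) and *ppp1r3c.1.L* (0.965). Most of them varied little, with *jak2.L* spanning 0.27 on the log2 scale over the 6 frogs and *srsf12.L* 0.16. Larger spans were those of *ppp1r3c.1.L* (1.96), *lipg.L* (1.92) and the plasminogen activator *plat.L* (1.15). The 6 arrays are the same in all of these correlations, and nothing is read from them about function.

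The comparison that the study was designed for is leptin against saline. The choice of members does not fix its direction, because a low frog is present in each group, but it makes the groups overlap in every member and widens their spread. In limma, 0 of the 9 members passed an adjusted p of 0.05, and 0 of 32539 probe sets did (0%). At an unadjusted p under 0.05 there were 0 of 9 members and 1533 of 32539 probe sets (4.71%), of which 662 were higher and 871 lower in leptin frogs. The adjusted p-values of the members from limma lay between 0.926 and 0.997.

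*ptgds.S* averaged 12.59 ± 1.94 in leptin frogs and 12.64 ± 2.56 in saline frogs (SD, n = 3 each), which differ by -0.06 (SE 1.45) with a 95% interval of -3.55 to 3.44 and a limma adjusted p of 0.997. The brighter *darmin.L* probe set averaged 12.05 ± 2.35 in leptin frogs and 12.13 ± 2.86 in saline frogs (SD, n = 3 each), a difference of -0.07 with a 95% interval of -4.09 to 3.95. *enpp2.L* averaged 9.96 ± 0.68 in leptin frogs and 10.25 ± 1.19 in saline frogs (SD, n = 3 each), a difference of -0.29 with a 95% interval of -1.80 to 1.21, the narrowest of the 9. These intervals are wide, so neither a rise nor a fall of 2-fold is shut out for any member. The choice of members itself widens them, so their width says little about leptin.

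The remaining differences were -0.39 for *pmp2.S* and also for the dimmer *darmin.L* probe set, 0.06 and -0.04 for *aifm3.L*, 0.21 for *ptgds-b* and 0.74 for *hprt1.L*. The difference was above 0 in 3 of 9 members, a count that was not taken over all tested probe sets. The median over the members was -0.06, and over all tested probe sets it was 0.01. Neither that tally nor that median has a settled direction, since every member changed sign when single frogs were left out and the median then ranged from -0.96 (without saline frog 1) to 0.68 (without saline frog 3). The residual standard deviation had a median of 1.52 in the members and 0.15 over all tested probe sets. The choice of members itself widens the first of these.

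Within the low frogs and within the high frogs, leptin minus saline took opposite signs. The low frogs were not at a like level in every member, as *hprt1.L* read 7.54 in leptin frog 4 and 4.89 in saline frog 1. Leptin frog 4 minus saline frog 1 was positive in 9 of 9 members (median 0.52). The mean of leptin frogs 5 and 6 minus the mean of saline frogs 2 and 3 was negative in 9 of 9, from -0.85 (*pmp2.S*) to -0.19 (*ptgds-b*), with a median of -0.35. The frog that was highest in every member, saline frog 3, is in the second of these comparisons, and no test was made of either. Against saline frog 2 alone the signs were mixed. Leptin frog 5 was above saline frog 2 in 5 of 9 members, and saline frog 2 was above leptin frog 6 in 6 of 9. None of these counts was taken over all probe sets. The members are not independent, since all were chosen for the same split of the same arrays. In addition, *darmin.L* and *aifm3.L* enter through both of their probe sets.

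**Figure D5:**
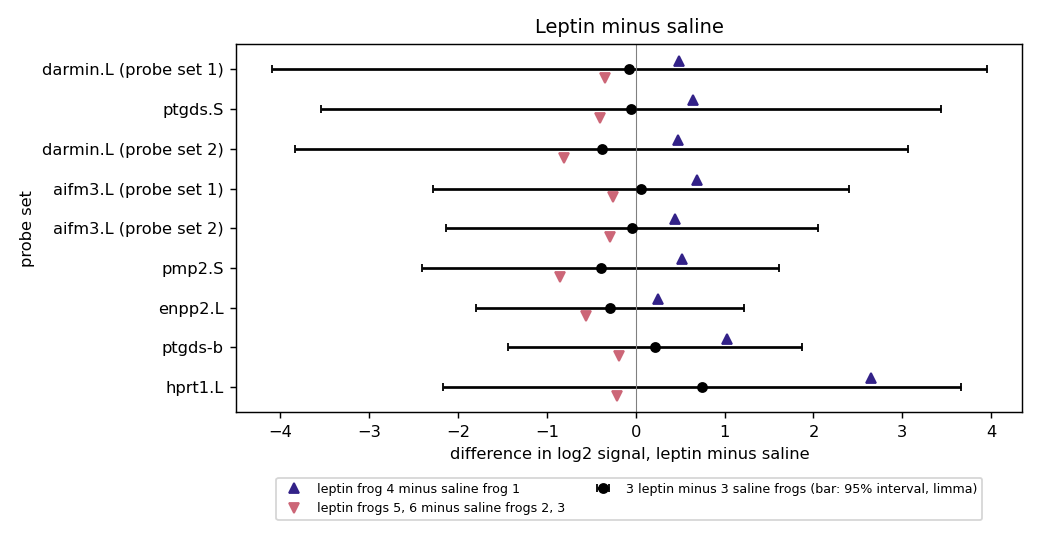
Difference in log2 signal, leptin minus saline, for the 9 members. Black points with 95% intervals from limma compare 3 leptin with 3 saline frogs, upward triangles give leptin frog 4 minus saline frog 1, and downward triangles the mean of leptin frogs 5 and 6 minus that of saline frogs 2 and 3. Every interval includes 0, every upward triangle is above 0 and every downward triangle is below 0.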

How the data were processed

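Expression was measured on Affymetrix *Xenopus laevis* arrays in 6 frogs, 3 given leptin and 3 given saline. The authors deposited a log2 signal for each probe set in each array. RMA, affy and limma are named, per the submitters' processing notes, with neither version nor role, and further settings were not given in the sources used here. No detection calls were used. Removing 96 AFFX controls left 32539 probe sets, of which 15495 had 1 symbol, 279 several and 16765 none. Names came from the platform annotation. Through gene identifiers, 15384 of the single-symbol probe sets and 8 of the 9 member probe sets matched the RefSeq table of Xenopus_laevis_v10.1, used for names only.

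Values were used as deposited. The comparison of leptin with saline used lmFit and eBayes of limma 3.58.1 (R 4.3.3), two-sided, with Benjamini-Hochberg adjustment over all tested probe sets and a threshold of 0.05. These steps and the gap were tested on simulated data. The p-values set the leptin minus saline difference against the spread between frogs within the groups. None was computed for the split of frogs that chose the members.

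The members and the 16 lists were chosen with earlier results of these data known. Named genes were all members, the 5 probe sets on either side of the threshold, list genes, a set of tissue checks and the 10 probe sets most alike. Others are marked. Scaling, thresholds, variance moderation, array weights and leaving out each frog were tried as alternatives. The counts of the lists without single frogs were added after seeing the data. Protein and promoter sequences were not used here.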

Additional observations from a re-analysis of the deposited data

How the results depend on the processing

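No paired analysis was possible because saline frogs 1 to 3 and leptin frogs 4 to 6 share no number. The count of 9 members became 10 with array medians set equal, 9 with quantile or cyclic loess scaling and 7 in the brighter 50% of probe sets. It was 24 at a gap of 0.5 and 5 at a gap of 1.5, and between 10 and 47 without single frogs (15 without saline frog 1, 14 without leptin frog 6 and 47 without leptin frog 4). The 9 members were shared by each of these settings that tested all of them, apart from the gap of 1.5. No member passed limma's adjusted threshold under any alternative run. The choice of members widens their spread and makes the groups overlap, so this count says little about leptin. Over all probe sets 0 to 4 passed without single frogs, the 4 without saline frog 2. The median leptin minus saline difference over the members, -0.06, ranged from -0.96 (without saline frog 1) to 0.68 (without saline frog 3) and was 0.29 with array weights. With single frogs left out it changed sign, as did each member's difference. These ran from -1.71 to 1.28 and from -1.84 to 0.64 for the *darmin.L* probe sets, -1.53 to 1.06 for *ptgds.S*, -0.57 to 0.65 for *ptgds-b*, -0.93 to 0.82 and -0.90 to 0.68 for *aifm3.L*, -1.33 to 0.21 for *pmp2.S*, -0.96 to 0.20 for *enpp2.L* and -0.69 to 1.74 for *hprt1.L*. With array weights the sign also turned for *ptgds.S* (0.37), *darmin.L* (0.43 and 0.26) and the second *aifm3.L* probe set (0.22). The cause was not tested. Over all 15495 single-symbol probe sets the split held for 5.04% as deposited and for 5.65% to 6.76% under the 3 scalings. Without single frogs that share rose to between 7.42% and 17.3%, so the list counts below are to be read beside it. The choroid plexus list, with its member, had 8 or 9 of 26 probe sets with the split under the 3 scalings. The leptomeninges list, 8 of 79 with its members, had 5 under quantile or cyclic loess scaling and 22 without leptin frog 4. Each cilia count under the 3 scalings was 5 or 6 of 27, against 4 as deposited, and those without single frogs were 5 to 9. The list of lipocalins and retinoid handling, with its member, had 15 of 45 without saline frog 2 and 21 without leptin frog 4. The count over all single-symbol probe sets was then 1442 and 2678. Without detection calls, probe sets at background were not set apart.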
